A study of Mus musculus with 12 samples.

Results

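The matrix metalloproteinases (Mmp genes), the Adamts proteases and their tissue inhibitors (Timp genes) were read from the raw count table of 12 mouse brain RNA-seq libraries. Every gene symbol made of Mmp, Timp or Adamts followed by a number and at most 1 letter was taken, which gave 46 of the 25124 genes in the table, namely 23 Mmp, 19 Adamts and 4 Timp genes. A minimum of 20 counts summed over all libraries was met by 41 of them, namely 18 Mmp, 19 Adamts and 4 Timp genes, and these are described here; all 41 were also among the 17612 genes tested. The other 5 were Mmp10 with 5 counts, Mmp7 with 3, and Mmp1a, Mmp1b and Mmp20 with 0.

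The study asked how dickkopf-1 (DKK1), which blocks Wnt signalling from outside the cell, acts in the brain after ischemic stroke by middle cerebral artery occlusion (MCAo). Wild-type mice labelled C57BL6/J were set beside DKK1 mice, which carried the alleles Gt(ROSA)26Sortm1.1(rtTA,EGFP)Nagy and Hprttm1(tetO-Dkk1)Spdl together with the Tg(TCF/Lef1-lacZ)34Efu/J reporter. In these mice doxycycline lets the rtTA activator, placed at the Rosa26 locus, switch on Dkk1. Both genotypes underwent the occlusion and received doxycycline at 200 mg/kg, with induction at day 3 and sampling at day 28, and the lesioned (ipsilateral) and intact (contralateral) hemispheres gave 4 groups of 3 libraries. No group carried the transgenes without doxycycline, so the alleles and the induced Dkk1 cannot be told apart. Nothing in the labels ties a library to an animal, so the p-values measure the spread between these libraries, which may be technical.

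Library totals ran from 21209920 to 26911840 counts, with 19557 to 20272 genes detected. Dkk1 had 0 counts in all 6 wild-type libraries, 13, 5 and 4 counts in the DKK1 intact libraries and 32, 7 and 44 in the DKK1 lesioned ones. Values given in sets of 3 follow replicate numbers 1, 2 and 3, and levels are CPM, counts relative to the library total scaled by edgeR's TMM factors. Neuronal markers were detected in every group, at summed levels of 3242 to 3581 CPM in the intact and 2255 to 2824 CPM in the lesioned libraries. The libraries labelled wild-type ipsilateral 1 and wild-type contralateral 1 stood apart from their groups. On the first principal component of all genes tested, wild-type ipsilateral 1 lay at 70.9 against 29.2 and 37.1 for the other wild-type lesions and 62.8 to 83.8 for the DKK1 lesions. Wild-type contralateral 1 lay at -41.2, against -72.6 and -63.3 for the other wild-type intact libraries.

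Mmps are zinc proteases, secreted or anchored in the membrane, that cut collagens, laminins and other matrix proteins, and most are made as inactive proenzymes. Adamts proteases carry thrombospondin repeats and cut proteoglycans such as brevican and versican, procollagens, or more specialised substrates. Timps bind the active site of Mmps, and Timp3 also inhibits several Adamts and Adam proteases. In the ischemic brain these enzymes are known for opening the blood-brain barrier early and for remodelling the scar and the vessels later.

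Of the Mmp genes, 10 lie in 1 cluster on chromosome 9 (mm10, chr9:7272514-7699585). Mmp13, Mmp12, Mmp3, Mmp8 and Mmp27 rose in the lesion, and Mmp1b, Mmp1a, Mmp10, Mmp20 and Mmp7 were the 5 genes under the minimum, which were not tested. Of the 5 that rose, Mmp27, Mmp8 and Mmp13 had 0, 6 and 16 counts over the intact libraries and so met the minimum through the lesions. Promoters were taken from RefSeq (GRCm38.p6, the build also called mm10), running from 250 bases before to 50 bases after the annotated start, and 32 of the 46 members had an entry. They were searched on both strands for TGACTCA, which reads TGAGTCA on the other strand, the element bound by the Fos and Jun factors of AP-1, known to drive several Mmp genes after cytokine signals. It was present in 7 of the 10 cluster genes, in 0 of the 22 members elsewhere in the genome that had an entry, and in 5.2% of all 32851 promoters. The 100 bases before the start are printed for 7 cluster genes, 5′ to 3′ on the gene's strand with the motif in capitals, to show that the motif was found both in genes that rose (Mmp3, Mmp12, Mmp13) and in genes near 0 (Mmp1a, Mmp10), and was not in this window of Mmp8 and Mmp27, which rose.
Mmp13: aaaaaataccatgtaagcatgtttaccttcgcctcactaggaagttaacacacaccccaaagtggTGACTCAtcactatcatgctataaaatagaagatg
Mmp12: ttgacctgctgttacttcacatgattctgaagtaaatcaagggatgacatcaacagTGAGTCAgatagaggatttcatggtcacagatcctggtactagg
Mmp3: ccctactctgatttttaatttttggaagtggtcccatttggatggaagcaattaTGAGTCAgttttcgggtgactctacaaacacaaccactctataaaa
Mmp8: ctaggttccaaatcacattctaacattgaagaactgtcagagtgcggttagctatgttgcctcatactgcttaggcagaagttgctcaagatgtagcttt
Mmp27: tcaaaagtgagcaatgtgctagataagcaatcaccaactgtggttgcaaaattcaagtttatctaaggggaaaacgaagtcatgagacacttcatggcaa
Mmp1a: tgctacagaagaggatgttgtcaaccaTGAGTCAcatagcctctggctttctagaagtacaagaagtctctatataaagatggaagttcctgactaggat
Mmp10: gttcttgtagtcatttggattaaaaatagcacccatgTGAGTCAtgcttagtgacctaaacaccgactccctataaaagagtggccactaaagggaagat
These stretches lie, all on the plus strand, at chr9:7272414-7272513, chr9:7347274-7347373, chr9:7445722-7445821, chr9:7558329-7558428, chr9:7571296-7571395, chr9:7464041-7464140 and chr9:7502242-7502341. The motif began 35 bases before the start in Mmp13, 44 in Mmp12, 46 in Mmp3, 73 in Mmp1a and 63 in Mmp10. A match describes the letters and does not show that a factor bound there.

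In wild-type mice the lesion raised 25 of the 41 described genes and lowered 3, where 21.2% of all genes tested were called higher and 15.9% lower. In DKK1 mice it raised 26 and lowered 6, where the background was 27.5% higher and 22.6% lower. The median log2 change over the 41 genes was 0.64 in wild-type and 0.94 in DKK1 mice, against 0.01 over all genes tested in either genotype. By family, the median was 1.87 for Mmp, 0.64 for Adamts and 0.50 for Timp genes in wild-type mice, and 2.36, 0.66 and 0.70 in DKK1 mice. Mmp3, Mmp8, Mmp12, Mmp13, Mmp25 and Mmp27 had few intact counts and entered the test through the lesions, where they are high. Their part in these counts and medians was therefore favoured by the choice of genes. Setting genes with 0 to 3 counts in an intact group at their bound or ratio left the medians of all members and of Mmp genes unchanged. This was fixed in advance, since those genes stayed above the medians. In both genotypes 22 genes were called higher and 3 lower, and 6 were called in neither. The share of all genes called in both is not given here, so these counts have no background beside them. Across the 41 genes the log2 changes in the separate mice of each genotype had a Spearman rho of 0.93, a description over genes, which are not replicates. Since bulk tissue was sequenced, more cells of a type and more RNA per cell cannot be told apart here.

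**Figure D1:**
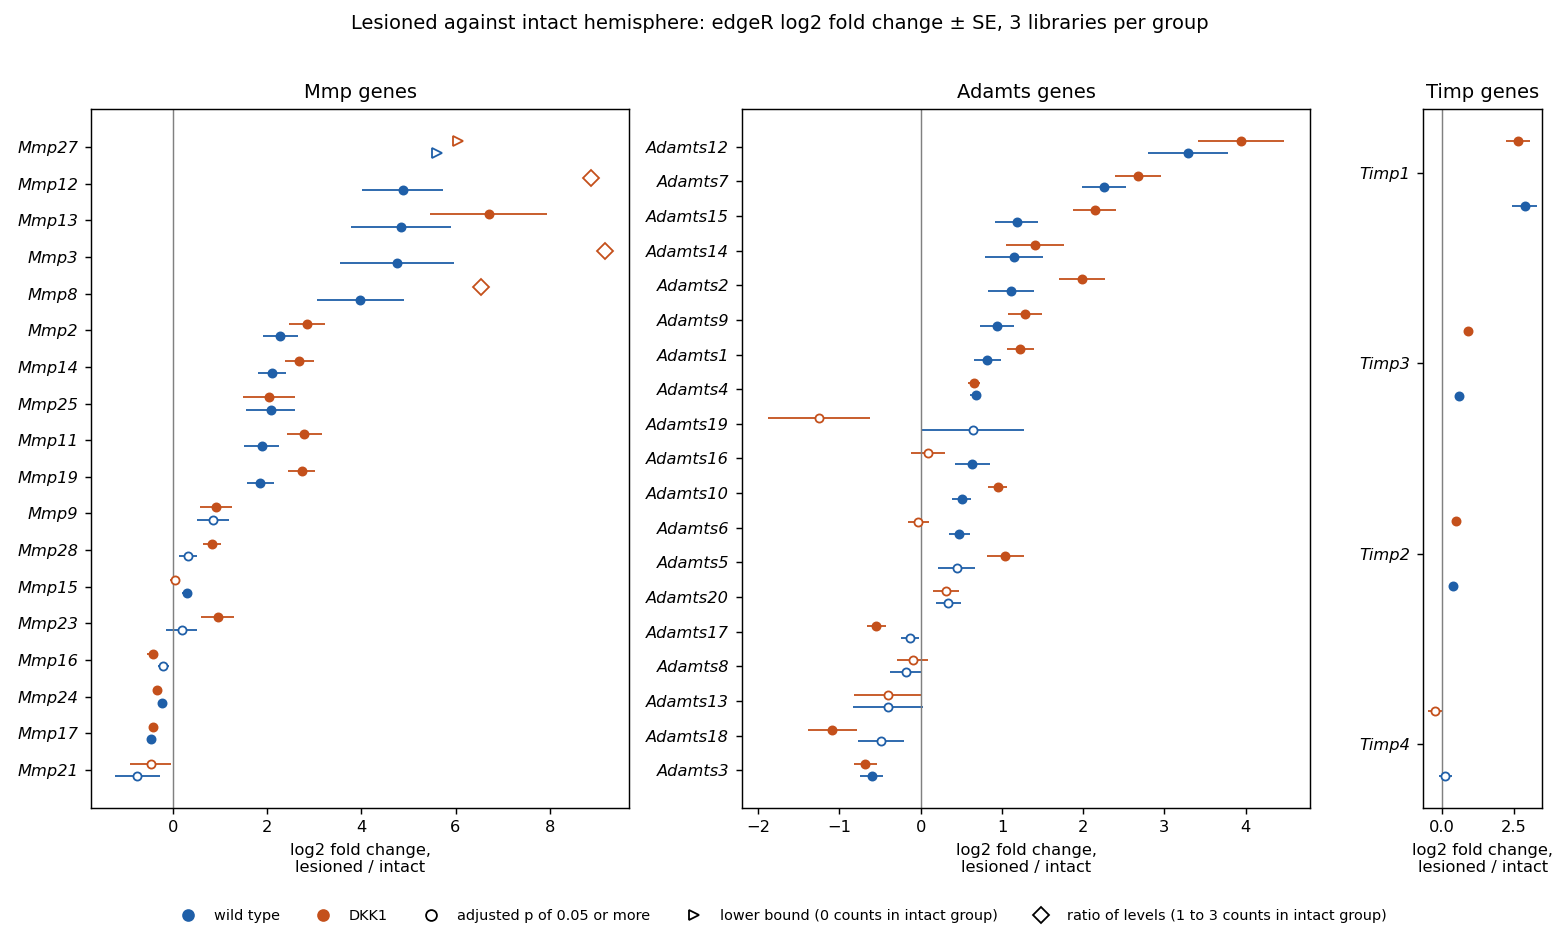
Log2 fold change, lesioned over intact hemisphere (horizontal axis), for the 41 described genes (rows) in wild-type (blue) and DKK1 (orange) mice, as edgeR estimates ± SE from 3 libraries a group, filled where the adjusted p was under 0.05. The cluster genes Mmp3, Mmp8, Mmp12, Mmp13 and Mmp27 lie farthest right, and Mmp17, Mmp24 and Adamts3 lie left of 0 in both genotypes; triangles are lower bounds and diamonds are ratios of levels for genes with 0 to 3 counts in the intact group.

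The greatest rises were those of the cluster genes, which were nearly silent on the intact side. Mmp3 (stromelysin-1, chr9:7445822-7455974), which cuts laminin, fibronectin and other Mmp proenzymes, was at 1.69, 0 and 0 CPM in the wild-type intact libraries and 39.6, 4.003 and 4.99 CPM in the wild-type lesions. In DKK1 mice it was at 0, 0.0820 and 0.0436 CPM on the intact side and 33.4, 9.82 and 32.2 CPM in the lesions. The groups did not overlap in either genotype, and wild-type contralateral 1 held all 45 of the wild-type intact counts. The log2 change in wild-type mice was 4.75 ± 1.21 (adjusted p = 0.0112); leaving out wild-type ipsilateral 1 gave 2.90 (adjusted p = 0.0614), and leaving out wild-type contralateral 1 gave 11.63, since it leaves 0 counts in the intact group. With limma-voom on all libraries the call was also lost (6.59, adjusted p = 0.116). In DKK1 mice 3 intact counts stood against 1955 in the lesions, a ratio of levels of 576 with an exact 95% interval of 197 to 2796 that covers counting error only.

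Mmp12 (macrophage elastase, chr9:7347374-7360461) stood at 0.975, 0.0855 and 0.0422 CPM in the wild-type intact and 24.3, 4.399 and 5.78 CPM in the wild-type lesioned libraries. Its DKK1 libraries held 0.0490, 0 and 0.0872 CPM on the intact and 22.6, 24.3 and 16.0 CPM on the lesioned side. All 6 lesions were above all 6 intact libraries, and wild-type lesions 2 and 3 were the lowest of the lesions. The wild-type log2 change was 4.87 ± 0.86 (adjusted p = 0.00154), 3.70 without ipsilateral 1, and 7.39 without contralateral 1, which leaves 3 intact counts. The DKK1 ratio of levels was 470.4 (exact 95% interval 161 to 2283), from 3 intact counts.

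The collagenases Mmp13 and Mmp8, which can cut intact fibrillar collagen, also rose. Mmp13 (chr9:7272514-7283333) had 0.413, 0 and 0.0422 CPM in wild-type intact, 11.0, 1.98 and 1.33 in wild-type lesioned, 0.147, 0.0410 and 0 in DKK1 intact and 5.36, 4.33 and 10.4 in DKK1 lesioned libraries. Its log2 change was 4.85 ± 1.06 (adjusted p = 0.00505) in wild-type mice and 6.70 ± 1.24 (adjusted p = 0.00104) in DKK1 mice. The wild-type value was 3.32 without ipsilateral 1 and 7.5 without contralateral 1, and the DKK1 value was 6.11 without contralateral 3 and 7.98 without contralateral 1. Mmp8 (chr9:7558429-7568486), the collagenase first described in neutrophils, had 0.113, 0 and 0.0422 CPM in wild-type intact, 1.76, 0.357 and 0.647 in wild-type lesioned, 0, 0 and 0.0872 in DKK1 intact and 1.68, 2.48 and 4.06 in DKK1 lesioned libraries. Both were higher in every lesion than in any intact library. For Mmp8 the wild-type log2 change was 3.98 ± 0.92 (adjusted p = 0.00624), 3.10 without ipsilateral 1 and 5.14 without contralateral 1, and the DKK1 ratio of levels was 93.7 (exact 95% interval 25.6 to 779) from 2 intact counts. The 6 neutrophil markers together reached 0.490 to 2.09 CPM in the intact and 3.33 to 8.19 CPM in the lesioned libraries, and Ly6g, which defines neutrophils in mice, was at 0 in every group except the DKK1 lesions; the part of these cells in the Mmp8 values was not tested.

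Mmp27 (chr9:7571396-7581885), a little-studied relative of the stromelysins, had 0 counts in all 6 intact libraries. Its lesion levels were 3.93, 0.476 and 1.41 CPM in wild-type and 2.66, 2.72 and 3.39 CPM in DKK1 mice. Against a floor of 3 counts over the intact group this was at least 48.4-fold higher in wild-type and at least 66.3-fold higher in DKK1 lesions; wild-type lesion 1 held 105 of the 154 wild-type counts. The 5 described cluster genes together had 85 counts in wild-type contralateral 1 and 17 in the other 5 intact libraries. In the lesions they had 2153, 283 and 372 counts in wild-type mice against 1678, 1058 and 1772 in DKK1 mice, so wild-type lesion 1 lay with the DKK1 lesions and apart from wild-type lesions 2 and 3. For comparison, the silent neighbours Mmp10 and Mmp7 had 5 and 3 counts, all of them in lesions.

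**Figure D2:**
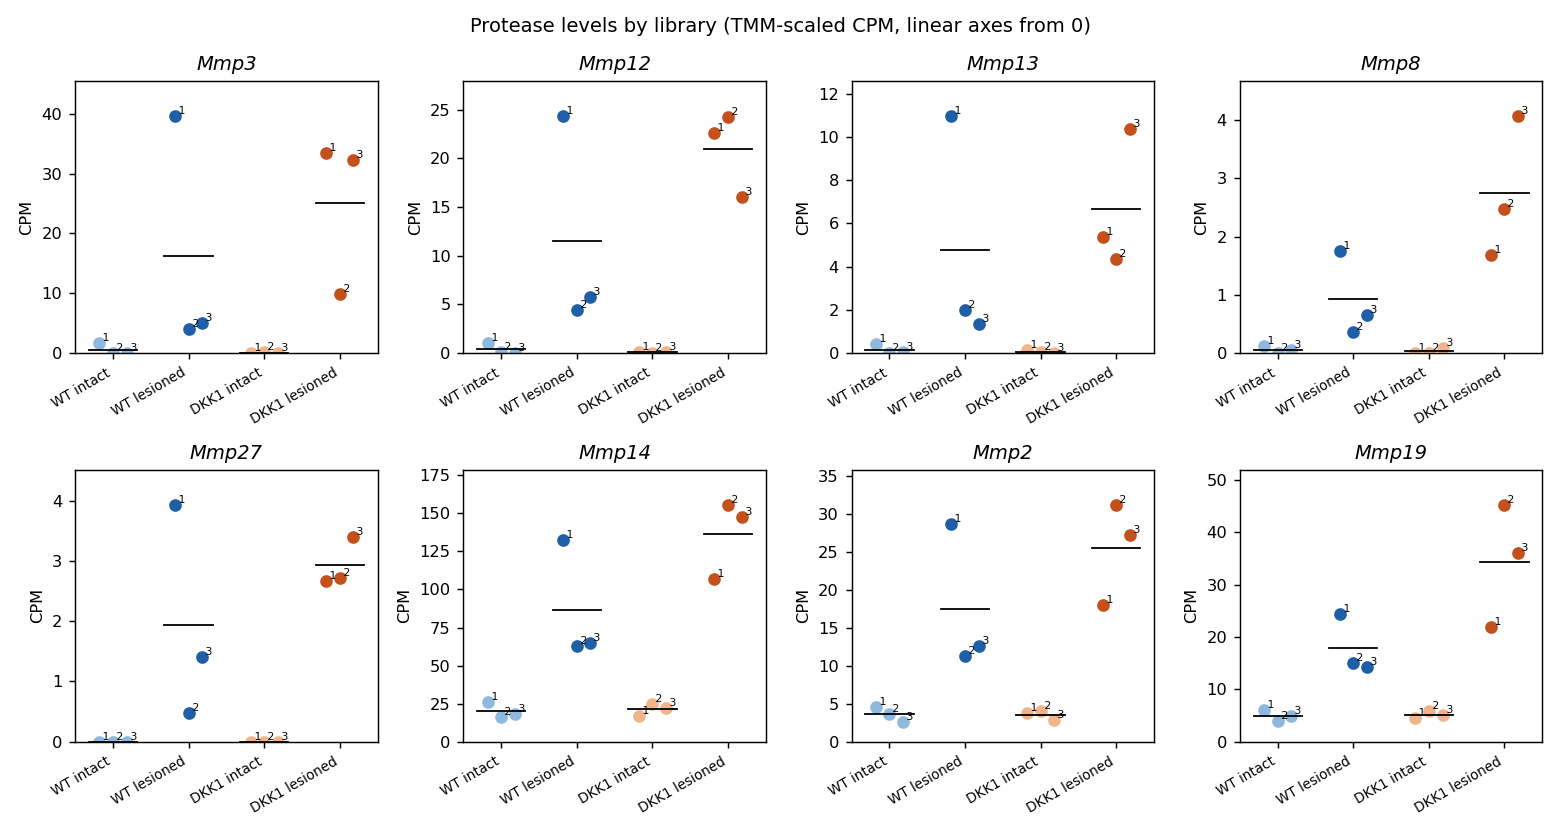
Levels of 8 Mmp genes in CPM (linear vertical axes from 0) in each of the 12 libraries, by group, with the replicate number beside each point and the group mean as a bar. Wild-type lesion 1 lies above wild-type lesions 2 and 3 in all 8 panels, and the intact libraries lie near the bottom of each.

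Among the gelatinases, which cut denatured collagen and the type IV collagen of basement membranes, Mmp2 rose in both genotypes, and Mmp9, the one best known for early opening of the blood-brain barrier, was called in DKK1 mice. Mmp2 (chr8:92827297-92853421) was at 4.61, 3.63 and 2.53 CPM in wild-type intact, 28.7, 11.3 and 12.6 in wild-type lesioned, 3.82, 4.06 and 2.79 in DKK1 intact and 18.1, 31.2 and 27.3 in DKK1 lesioned libraries. Its log2 change was 2.28 ± 0.37 (adjusted p = 9.46e-04) in wild-type and 2.84 ± 0.38 (adjusted p = 1.14e-04) in DKK1 mice, with no overlap between the sides. Mmp9 (chr2:164948219-164955850) was at 1.54, 1.54 and 1.90 CPM in wild-type intact, 4.82, 1.98 and 2.13 in wild-type lesioned, 1.67, 2.46 and 1.48 in DKK1 intact and 2.78, 3.71 and 4.14 in DKK1 lesioned libraries. Every Mmp9 lesion value lay above the intact values of its genotype, though wild-type lesions 2 and 3 did so narrowly. Its log2 change was 0.85 ± 0.34 in wild-type mice, which missed the threshold (adjusted p = 0.0726), and 0.92 ± 0.34 (adjusted p = 0.0416) in DKK1 mice. The DKK1 call was lost without DKK1 contralateral 1 (adjusted p = 0.118), contralateral 3 (0.142), ipsilateral 2 (0.0927) or ipsilateral 3 (0.128). In wild-type mice Mmp9 passed without ipsilateral 2 (1.06, adjusted p = 0.0322) or ipsilateral 3 (1.04, adjusted p = 0.0498), which leave wild-type lesion 1 with 1 other. A difference between the genotypes in the Mmp9 response was not found, with an interaction of 0.07 ± 0.49 (adjusted p = 0.979).

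The membrane-anchored Mmps moved in opposite directions. Mmp14 (MT1-MMP, chr14:54431598-54442456), which cuts collagen at the cell surface and activates the Mmp2 proenzyme together with Timp2, was at 26.0, 16.2 and 18.5 CPM in wild-type intact and 132, 63.1 and 64.7 in wild-type lesioned libraries. In DKK1 mice it was at 17.1, 24.6 and 21.9 CPM on the intact and 107, 155 and 148 CPM on the lesioned side. The lesions lay far above the intact libraries throughout, with log2 changes of 2.10 ± 0.30 (adjusted p = 4.45e-04) in wild-type and 2.68 ± 0.30 (adjusted p = 3.96e-05) in DKK1 mice. Mmp25, anchored by a lipid and first found in leukocytes, rose by 2.07 ± 0.53 and 2.03 ± 0.55 from levels under 1 CPM; the wild-type value was 3.13 without wild-type contralateral 1. By contrast Mmp17 (MT4-MMP, chr5:129584169-129609154), also lipid-anchored, fell from 225, 229 and 213 CPM in wild-type intact to 149, 178 and 155 CPM in wild-type lesioned libraries. In DKK1 mice Mmp17 fell from 233, 204 and 215 to 177, 157 and 153 CPM. These Mmp17 groups did not overlap, and the log2 changes were -0.47 ± 0.08 (adjusted p = 9.48e-04) and -0.42 ± 0.08 (adjusted p = 9.46e-04).

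Mmp24 (MT5-MMP, chr2:155775342-155818366), known from neurons, fell less. It was at 79.0, 88.2 and 82.0 CPM in wild-type intact, 64.7, 73.0 and 73.3 in wild-type lesioned, 75.3, 89.2 and 82.4 in DKK1 intact and 64.8, 65.2 and 65.2 in DKK1 lesioned libraries, with log2 changes of -0.24 ± 0.07 (adjusted p = 0.0192) and -0.34 ± 0.07 (adjusted p = 0.00189). The wild-type call was lost without wild-type ipsilateral 1 (adjusted p = 0.0770), without contralateral 2 (0.0815), without both wild-type libraries numbered 1 (0.0505) and with limma on TPM (-0.19, adjusted p = 0.0647). Mmp16 (MT3-MMP, chr4:17853458-18118734) was at 21.5, 18.9 and 17.8 CPM in wild-type intact, 18.6, 15.6 and 16.2 in wild-type lesioned, 21.9, 20.4 and 21.9 in DKK1 intact and 18.6, 15.3 and 13.6 in DKK1 lesioned libraries. It fell in DKK1 mice (-0.44 ± 0.12, adjusted p = 0.009), and its wild-type value of -0.21 ± 0.12 did not pass (adjusted p = 0.194). Neuronal markers fell in the lesions as well, 5 of 6 in wild-type and 6 of 6 in DKK1 mice, and their part in the falls of Mmp16, Mmp17 and Mmp24 was not tested.

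Of the remaining Mmp genes, Mmp11 (stromelysin-3) and Mmp19 rose in both genotypes. Mmp11 rose by 1.88 ± 0.37 in wild-type and 2.78 ± 0.37 in DKK1 mice, and Mmp19 by 1.85 ± 0.29 and 2.73 ± 0.29. Mmp28 (epilysin) and Mmp23 were called in DKK1 mice, at 0.83 ± 0.19 (adjusted p = 0.00328) and 0.94 ± 0.35 (adjusted p = 0.0405). Their wild-type values were 0.31 ± 0.19 and 0.18 ± 0.34, and Mmp28 passed there without wild-type contralateral 1 (0.53, adjusted p = 0.0384). The Mmp23 call was lost without DKK1 contralateral 2 (adjusted p = 0.142), contralateral 3 (0.135), ipsilateral 2 (0.0651) or ipsilateral 3 (0.167). Mmp15 (MT2-MMP) was called in wild-type mice alone, at 0.29 ± 0.10 (adjusted p = 0.0354), and in DKK1 mice stood at 0.04 ± 0.10; the interaction was -0.25 ± 0.14 (adjusted p = 0.588). The Mmp15 call was lost without wild-type contralateral 2 (adjusted p = 0.135) or 3 (0.117) and without wild-type ipsilateral 1 (0.147) or 3 (0.0769). Mmp21 had 140 counts in all and passed in neither genotype.

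Of 7 Adamts genes that cut proteoglycans of the perineuronal and vessel matrix, 4 were called higher in wild-type and 5 in DKK1 lesions. Among all genes tested, 21.2% and 27.5% were called higher. The grouping was made after the values had been seen, so these counts do not speak for the class as a whole. Adamts4 (chr1:171250129-171262267), an aggrecanase that also cuts brevican, was at 69.4, 62.9 and 70.6 CPM in wild-type intact, 118, 102 and 103 in wild-type lesioned, 65.3, 59.0 and 56.8 in DKK1 intact and 98.8, 92.2 and 94.0 in DKK1 lesioned libraries. Its response was even across libraries, at 0.67 ± 0.07 (adjusted p = 6.26e-05) and 0.66 ± 0.07 (adjusted p = 2.66e-05). Adamts1 (chr16:85793828-85803113), which cuts versican and binds growth factors, was at 23.6, 31.6 and 28.0 CPM in wild-type intact, 58.3, 47.6 and 40.5 in wild-type lesioned, 17.6, 25.3 and 25.6 in DKK1 intact and 48.4, 57.1 and 55.1 in DKK1 lesioned libraries. Adamts1 rose by 0.82 ± 0.17 and 1.23 ± 0.17, with no overlap between the sides of either genotype. Adamts5 (chr16:85858157-85901125), the other main aggrecanase, was at 4.61, 3.72 and 4.43 CPM in wild-type intact, 8.04, 5.47 and 3.84 in wild-type lesioned, 3.63, 3.85 and 3.49 in DKK1 intact and 6.54, 7.76 and 8.27 in DKK1 lesioned libraries. It was called in DKK1 mice (1.04 ± 0.23, adjusted p = 0.00269), whereas in wild-type mice lesion 3 fell among the intact values and the change of 0.44 ± 0.23 did not pass (adjusted p = 0.147). Without wild-type ipsilateral 3 the wild-type change was 0.66 (adjusted p = 0.0235).

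Adamts9 and Adamts15 completed the proteoglycan-cutting genes that rose, by 0.94 ± 0.21 and 1.18 ± 0.26 in wild-type and by 1.29 ± 0.21 and 2.14 ± 0.27 in DKK1 mice. Adamts8 and Adamts20 passed in neither genotype, although Adamts20 passed in wild-type mice without ipsilateral 2 (0.47, adjusted p = 0.0268). Adamts12 (chr15:11064773-11349232), a relative of Adamts7 that like it cuts cartilage oligomeric matrix protein, showed the greatest Adamts rise. It was at 0.938, 0.513 and 0.507 CPM in wild-type intact, 11.6, 4.04 and 3.77 in wild-type lesioned, 0.441, 0.574 and 0.262 in DKK1 intact and 4.70, 8.17 and 7.08 in DKK1 lesioned libraries. All lesions lay above all intact libraries, and the log2 changes were 3.29 ± 0.49 (adjusted p = 5.36e-04), or 2.56 without wild-type ipsilateral 1, and 3.94 ± 0.53 (adjusted p = 1.18e-04). Adamts7 rose by 2.26 ± 0.27 and 2.68 ± 0.28 from intact levels under 1 CPM.

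The procollagen N-proteinases, which trim fibrillar procollagens before assembly, split. Adamts2 rose by 1.11 ± 0.28 in wild-type and 1.99 ± 0.28 in DKK1 mice, and Adamts14 by 1.147 ± 0.35 and 1.41 ± 0.35. The wild-type Adamts14 call was lost without wild-type contralateral 1 (adjusted p = 0.0631) or 2 (0.0899) and without ipsilateral 1 (0.0654) or both libraries numbered 1 (0.121). Adamts3 (chr5:89673841-89883334), which also processes the lymphatic growth factor Vegfc, fell from 75.5, 75.1 and 64.8 to 48.9, 51.4 and 41.5 CPM in wild-type and from 77.8, 69.6 and 73.6 to 54.9, 48.5 and 34.3 CPM in DKK1 mice. The sides of Adamts3 did not overlap, and its log2 changes were -0.60 ± 0.14 (adjusted p = 0.00757) and -0.68 ± 0.14 (adjusted p = 0.00227).

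Among the other Adamts genes, 3 of 7 were higher in wild-type lesions, and 1 was higher and 2 lower in DKK1 lesions, against 21.2% of all genes higher in wild-type lesions and 27.5% higher and 22.6% lower in DKK1 lesions. Adamts10, which binds fibrillin microfibrils, rose in both, by 0.50 ± 0.12 and 0.95 ± 0.12; the wild-type value was 0.32 (adjusted p = 0.0608) without the wild-type libraries numbered 1 of both hemispheres, an alternative chosen after seeing the data. Adamts6 and Adamts16 passed the threshold in wild-type but not in DKK1 mice, at 0.48 ± 0.13 (adjusted p = 0.0154) and 0.64 ± 0.21 (adjusted p = 0.0346), with DKK1 values of -0.03 ± 0.13 and 0.09 ± 0.21. The Adamts6 call was lost without wild-type ipsilateral 1 (adjusted p = 0.0684), contralateral 2 (0.0609) or contralateral 3 (0.0603). The Adamts16 call was lost without wild-type ipsilateral 1, where the value was 0.38 (adjusted p = 0.164), ipsilateral 3 (0.0789), contralateral 1 (0.0582), contralateral 2 (0.123) or contralateral 3 (0.0540). Adamts16 was also lost with limma-voom (adjusted p = 0.0631), with limma on TPM (0.0593) and without both wild-type libraries numbered 1 (0.179). The interaction was -0.51 ± 0.19 (adjusted p = 0.465) for Adamts6 and -0.55 ± 0.30 (adjusted p = 0.585) for Adamts16.

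Adamts18 and Adamts17 fell in DKK1 lesions. Adamts18 (chr8:113697124-113848839) was at 5.37, 2.69 and 3.63 CPM in wild-type intact, 3.22, 2.58 and 2.55 in wild-type lesioned, 4.02, 2.91 and 3.01 in DKK1 intact and 2.19, 1.24 and 1.23 in DKK1 lesioned libraries. Its DKK1 change was -1.09 ± 0.30 (adjusted p = 0.0102), and the wild-type change of -0.49 ± 0.28 did not pass (adjusted p = 0.2), the wild-type sides overlapping. Adamts17 (chr7:66839735-67152625) was at 9.94, 8.89 and 8.49 CPM in wild-type intact, 8.26, 7.85 and 8.83 in wild-type lesioned, 10.04, 12.5 and 10.9 in DKK1 intact and 7.05, 7.84 and 8.05 in DKK1 lesioned libraries. Its changes were -0.55 ± 0.12 (adjusted p = 0.00218) in DKK1 and -0.13 ± 0.12 (adjusted p = 0.4) in wild-type mice. Adamts13, which cuts von Willebrand factor, and Adamts19 passed in neither genotype.

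Of the 4 inhibitor genes, 3 rose in the lesions of both genotypes. Among all genes tested, 21.2% were called higher in wild-type and 27.5% in DKK1 lesions. Timp1 (chrX:20870166-20874737), the inducible inhibitor, was at 1.09, 0.812 and 0.971 CPM in wild-type intact, 12.7, 4.72 and 3.73 in wild-type lesioned, 1.67, 1.43 and 1.05 in DKK1 intact and 7.28, 9.41 and 9.36 in DKK1 lesioned libraries. It rose by 2.87 ± 0.44 (adjusted p = 5.63e-04) and 2.65 ± 0.42 (adjusted p = 3.69e-04), the greatest Timp change in both genotypes. Wild-type lesion 1 held the highest level, and without it the wild-type change was 2.13. Timp2 (chr11:118301061-118355411), the most abundant of the family per transcript length and a partner of Mmp14 in activating Mmp2, was at 294, 269 and 292 CPM in wild-type intact, 410.2, 341 and 367 in wild-type lesioned, 293, 298 and 295 in DKK1 intact and 406, 429 and 417 in DKK1 lesioned libraries. Every Timp2 lesion value lay above every intact value, with log2 changes of 0.39 ± 0.07 (adjusted p = 0.00107) and 0.50 ± 0.07 (adjusted p = 8.96e-05).

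Timp3 (chr10:86300412-86349505), which stays bound to the matrix, was at 139, 116 and 128 CPM in wild-type intact, 184, 204 and 198 in wild-type lesioned, 144, 139 and 123 in DKK1 intact and 228, 276 and 254.9 in DKK1 lesioned libraries. Its lesions lay above its intact libraries, by 0.61 ± 0.09 (adjusted p = 3.92e-04) in wild-type and 0.90 ± 0.09 (adjusted p = 1.11e-05) in DKK1 mice. Timp4 (chr6:115244446-115252205), the inhibitor best known from heart and brain, was at 31.7, 43.6 and 46.3 CPM in wild-type intact, 32.8, 46.2 and 53.0 in wild-type lesioned, 28.0, 45.6 and 42.9 in DKK1 intact and 25.1, 38.5 and 34.9 in DKK1 lesioned libraries, and its sides overlapped in both genotypes. The Timp4 values were 0.12 ± 0.23 (adjusted p = 0.719) and -0.24 ± 0.23 (adjusted p = 0.414). In each group replicate 1 was the lowest for Timp4, and with same-numbered hemispheres of a genotype paired as a replicate block the DKK1 change was -0.23 (adjusted p = 0.00546). The same block brought 4 other lesion results past the threshold, Adamts19 in DKK1 mice (-1.27, adjusted p = 0.00961), Adamts20 in wild-type (0.32, adjusted p = 0.0345) and DKK1 mice (0.31, adjusted p = 0.0341), and Mmp28 in wild-type mice (0.33, adjusted p = 0.0442). The share of all genes called with the lesion under this block is not given here, so this count has no background beside it.

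**Figure D3:**
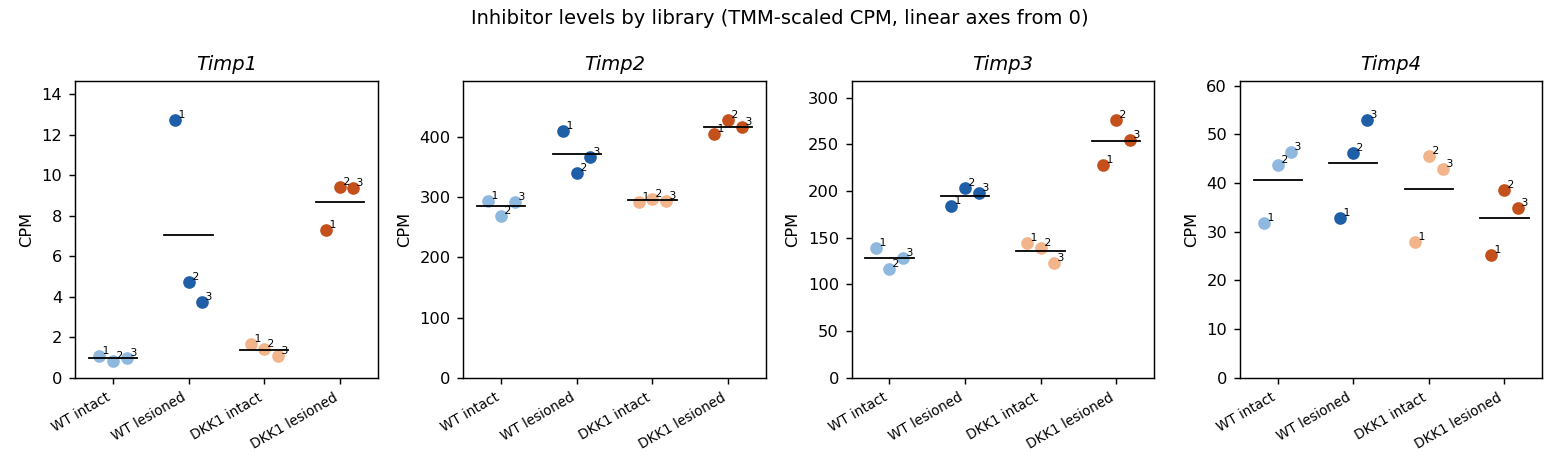
Levels of the 4 Timp genes in CPM (linear vertical axes from 0) in each library, by group, with replicate numbers and the group mean as a bar. Timp1, Timp2 and Timp3 lie higher in every lesion than in any intact library of the same genotype, and Timp4 overlaps between the sides with replicate 1 lowest in each group.

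To set inhibitors beside proteases, levels were divided by transcript length in kilobases and summed. On the intact side the Mmp sum was 94.2 ± 4.47 CPM per kb (SD, n = 3) in wild-type and 93.8 ± 1.32 in DKK1 mice, and the Timp sum was 121 ± 5.33 and 125 ± 3.39. In the lesions the Mmp sum was 163, 106 and 103 CPM per kb in wild-type mice against 149, 158 and 168 in DKK1 mice, and the Timp sum was 178, 159 and 166 against 178, 202 and 192. The Timp to Mmp ratio was therefore 1.10, 1.51 and 1.62 in the wild-type lesions, which overlapped their intact values of 1.25, 1.21 and 1.40. In DKK1 mice it was 1.20, 1.27 and 1.14 in the lesions, below all intact values of 1.30, 1.39 and 1.33. These are ratios of RNA levels with no test, since they sum over genes picked by name. The deposited TPM gave group means of 1.29, 1.41, 1.34 and 1.20 for wild-type intact, wild-type lesioned, DKK1 intact and DKK1 lesioned libraries, as the scaled counts did. That is no separate check, since library scaling cancels in a ratio within a library.

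**Figure D4:**
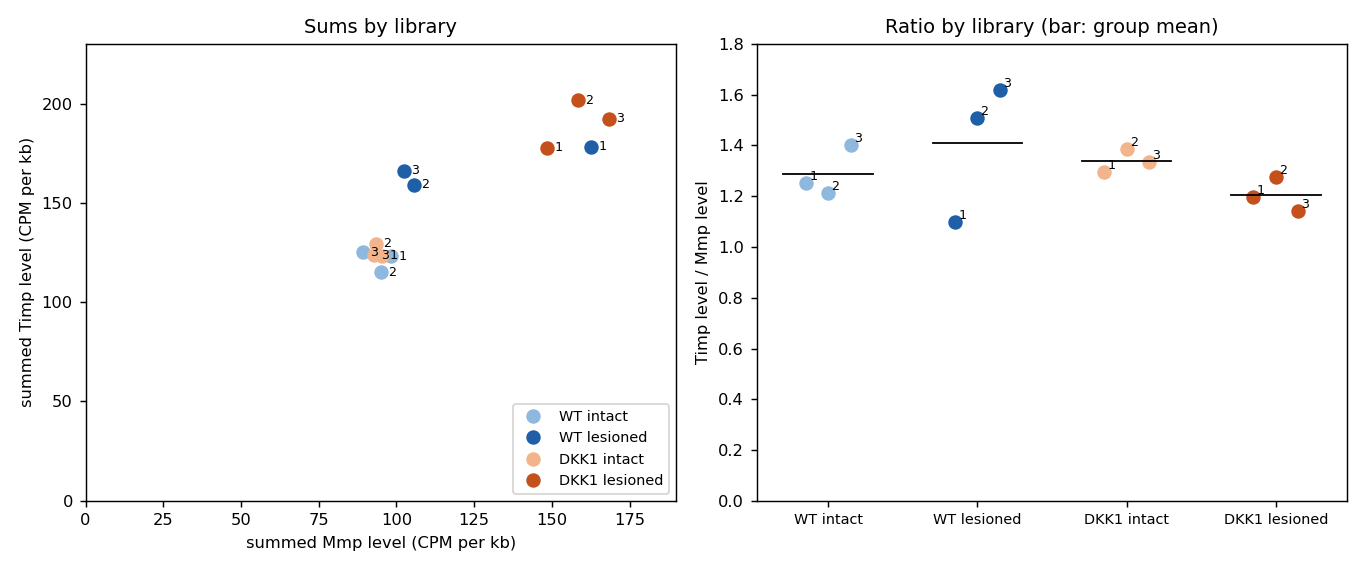
Left, summed Timp level against summed Mmp level, both in CPM per kb of transcript, for each of the 12 libraries (numbers are replicates). Right, the ratio of the sums by group with the group mean as a bar, where wild-type lesion 1 at 1.10 lies apart from wild-type lesions 2 and 3 at 1.51 and 1.62, and the 3 DKK1 lesions lie at 1.14 to 1.27.

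The makeup of both sums shifted. Mmp17 made up 48.9% to 54.7% of the Mmp sum in the intact libraries and 20.3% to 37.8% in the lesions, while Mmp14 went from 4.51% to 6.99% on the intact side to 15.8% to 25.9% in the lesions. On the inhibitor side Timp1 made up 0.800% to 1.53% of the Timp sum on the intact side, 8.10%, 3.36% and 2.55% in the wild-type lesions and 4.64%, 5.29% and 5.52% in the DKK1 lesions. Timp2 stayed the largest share in each library. Adamts genes summed to 50.5 ± 1.16 and 49.0 ± 1.65 CPM per kb on the wild-type and DKK1 intact sides and to 70.2 ± 10.1 and 78.8 ± 7.10 in the lesions (SD, n = 3 each).

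Between the genotypes, 1 of the 41 genes passed in the lesioned hemisphere, where 1.52% of all genes were called higher and 0.846% lower in DKK1 mice. This was Timp3, at 228, 276 and 254.9 CPM in the DKK1 lesions against 184, 204 and 198 in the wild-type lesions, with no overlap and a log2 difference of 0.38 ± 0.09 (adjusted p = 0.048). The lesion values of Mmp28 (higher in DKK1 mice) and of Adamts4 and Adamts18 (lower) did not overlap between the genotypes either. None of these passed, and the share of all genes with no overlap is not given here. The Timp3 call was marginal and was lost with RLE scaling (adjusted p = 0.0581), upper-quartile scaling (0.0711), no expression filter (0.0654), TPM (0.0911) and the replicate number as a block (0.0567). It was also lost without wild-type ipsilateral 2 (0.116) or 3 (0.168) or DKK1 ipsilateral 2 (0.204) or 3 (0.154). The median log2 difference over the 41 genes was 0.26 against 0.02 over all genes tested, 29 of the 41 were above 0, and 11 were at an unadjusted p under 0.05, where 20.9% of all genes were. With upper-quartile scaling 50% of all calls were higher in DKK1 lesions, and with TPM 45.5%, against 64.3% here.

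The number of members that differed depended on the wild-type lesion numbered 1. Without it 13 of the 41 genes were higher in DKK1 lesions and 0 lower, where 10.1% of all genes were called higher and 4.2% lower. They were Mmp2, Mmp8, Mmp11, Mmp12, Mmp13, Mmp14, Mmp19, Adamts2, Adamts5, Adamts10, Timp1, Timp2 and Timp3. Mmp14, for example, differed by 0.66 ± 0.28 with all libraries (adjusted p = 0.212) and by 1.10 ± 0.21 (adjusted p = 0.00991) without that library, and Mmp12 by 0.86 ± 0.61 (adjusted p = 0.441) and 2.04 ± 0.48 (adjusted p = 0.0203). Timp1 differed by 0.30 ± 0.37 (adjusted p = 0.687) with it and by 1.04 ± 0.21 (adjusted p = 0.00996) without it. Mmp9 and Mmp3 did not pass either way, at 0.78 ± 0.26 (adjusted p = 0.0676) and 2.48 ± 0.82 (adjusted p = 0.0770) without it. Leaving out the wild-type libraries numbered 1 of both hemispheres gave 16 higher, where 12.8% of all genes were, and leaving out DKK1 ipsilateral 1 gave 4 higher (Adamts10, Adamts15, Mmp19 and Timp3), where 4% of all genes were called higher. DESeq2 on all libraries called 4 higher (Adamts2, Adamts15, Mmp19 and Timp3), where it called 4.59% of all genes higher.

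**Figure D5:**
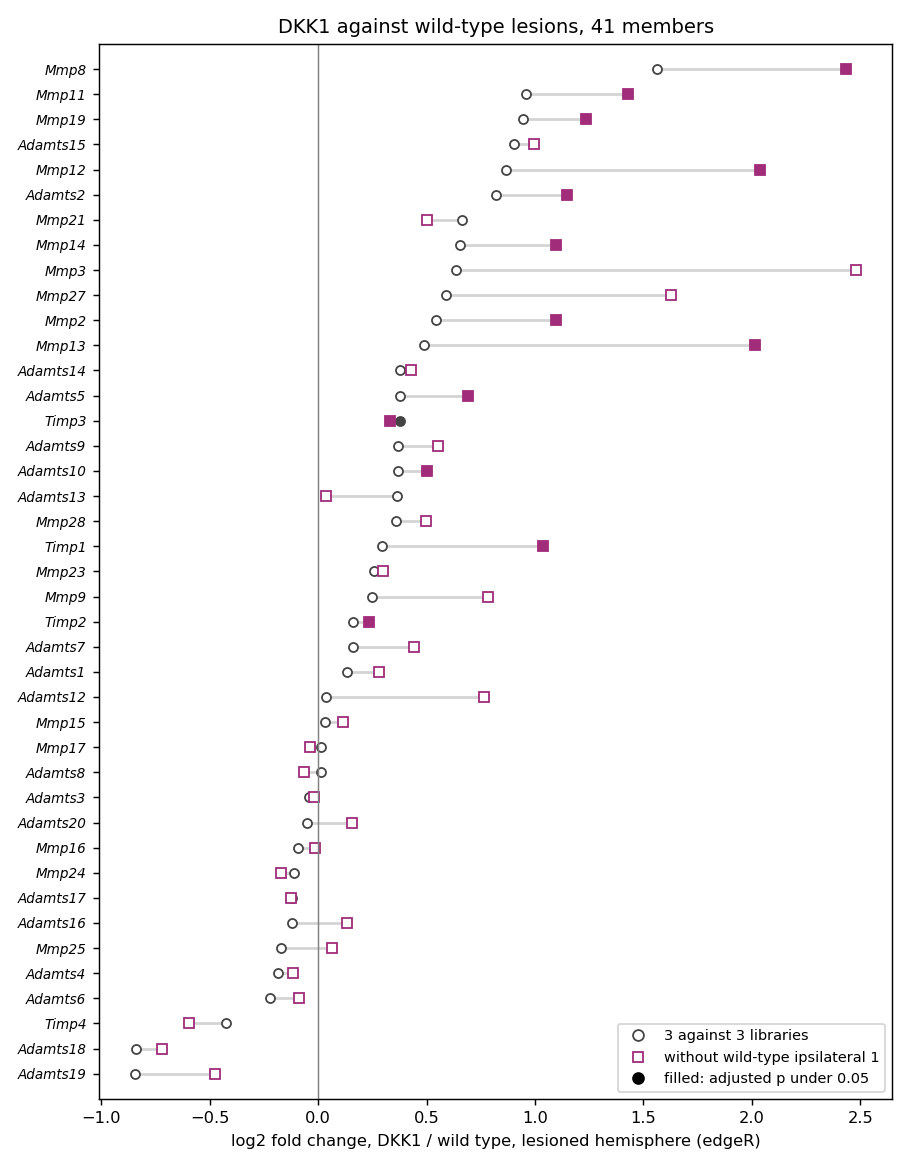
Log2 fold change, DKK1 over wild-type lesions (horizontal axis), for the 41 described genes (rows), from edgeR with all 3 libraries a group (circles) and without wild-type ipsilateral 1 (squares), filled where the adjusted p was under 0.05. The 1 filled circle is Timp3 and 13 squares are filled, and the squares of Mmp3, Mmp12, Mmp13 and Timp1 lie to the right of their circles.

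Markers of several other cell types moved with the same library. Sums of some marker lists, vessel markers among them, lay higher in every DKK1 lesion than in any wild-type lesion. The 6 fibroblast markers summed to 918 CPM in wild-type lesion 1, 401 and 402 CPM in wild-type lesions 2 and 3, 684 to 926 CPM in the DKK1 lesions and 92.9 to 170.1 CPM in the intact libraries. All 6 rose with the lesion in both genotypes; between the genotypes in lesions 0 of 6 passed by edgeR, with 2 at an unadjusted p under 0.05. The 5 markers of border macrophages and monocytes summed to 64.7 CPM in wild-type lesion 1, 27.1 and 29.4 CPM in wild-type lesions 2 and 3, 56.7 to 65.9 CPM in the DKK1 lesions and 8.59 to 11.6 CPM in the intact libraries, and 3 of 5 rose with the lesion in each genotype. The 7 microglia and macrophage markers summed to 792 CPM in wild-type lesion 1, 461 and 554 CPM in the other wild-type lesions, 742 to 803 CPM in the DKK1 lesions and 169 to 273 CPM in the intact libraries, with 6 of 7 called higher in wild-type and 7 of 7 in DKK1 lesions. The 5 endothelial markers summed to 204, 185 and 177 CPM in the wild-type and 225, 244 and 223 CPM in the DKK1 lesions. The 5 mural cell markers summed to 304, 292 and 277 CPM in the wild-type and 346, 342 and 347 CPM in the DKK1 lesions. Like Timp3, neither sum overlapped between the genotypes there, and 1 of 5 markers in each list was called higher in DKK1 lesions. The sums of other lists did not overlap there either. Disease-associated microglia markers summed to 1749 to 2640 CPM in the wild-type and 2757 to 3181 CPM in the DKK1 lesions. Reactive astrocyte markers ran from 902 to 1263 and 1273 to 1348 CPM, and T cell markers from 16.8 to 27.1 and 34.3 to 39.6 CPM. Of these, 1 of 6, 1 of 5 and 0 of 4 were called higher in DKK1 lesions. The T cell sum ran from 31.9 to 50.9 CPM in the wild-type and from 36.5 to 42.9 CPM in the DKK1 intact libraries. With the lesion 3 of the 4 T cell markers were called higher and 1 lower in each genotype, so the sum does not follow all of them. On the intact side the endothelial sum ran from 129 to 169 CPM and the mural sum from 206 to 279.7 CPM. No marker of these lists was at 0 in any group. Their part in the protease and Timp values was not tested.

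In the intact hemisphere 0 of the 41 genes differed between the genotypes by edgeR, where 0.369% of all genes were called higher and 0.511% lower, and DESeq2 and limma-voom also called 0. Without the wild-type libraries numbered 1 of both hemispheres Mmp15 passed (0.38, adjusted p = 0.0489). At an unadjusted p under 0.05 there were 3, where 6.08% of all genes were. Adamts10 and Mmp25 lie on chromosome 17, in windows of 10 Mb where 22 of 223 and 21 of 229 other tested genes (9.87% and 9.17%) were called between the genotypes on the intact side, against 0.88% of all genes; for the other described genes this share was at most 2.17%.

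The response to the lesion was not found to differ between the genotypes for any of the 41 genes in the unpaired fit, where 0.00568% of all genes were called with a higher and 0% with a lower response in DKK1 mice. By edgeR 7 genes were at an unadjusted p under 0.05, where 9.59% of all genes were, and DESeq2 and limma-voom called 0. Same-numbered hemispheres of a genotype were also paired as a replicate block, although the labels give no such pairs. In that fit 2 genes passed, where 1.46% of all genes were called with a higher response. They were Mmp14, at 0.63 ± 0.13 (adjusted p = 0.0435), and Mmp12, at 3.73 ± 0.76 (adjusted p = 0.0440), whose fitted value rests on 3 counts in the DKK1 intact group and on wild-type contralateral 1, which held 26 intact counts against 2 and 1 in the other wild-type libraries. In the unpaired fit the Mmp12 difference was 3.86 ± 1.99, 1.34 (adjusted p = 0.918) without wild-type contralateral 1 and 5.03 (adjusted p = 0.0801) without wild-type ipsilateral 1. The unpaired Mmp14 difference was 0.59 ± 0.41, 0.36 (adjusted p = 0.815) without wild-type contralateral 1 and 1.03 (adjusted p = 0.0989) without wild-type ipsilateral 1. Without DKK1 ipsilateral 1, Adamts15 passed in the unpaired fit at 1.26 (adjusted p = 0.0238), against 0.96 ± 0.37 (adjusted p = 0.483) with it. Adamts15 was at 26.4, 21.5 and 22.4 CPM in the wild-type and 23.1, 54.0 and 54.3 CPM in the DKK1 lesions, the first DKK1 lesion lying among the wild-type values.

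Genes that work with these proteases were read from lists chosen by function, to be set beside the 21.2% of all genes called higher and 15.9% lower in wild-type lesions and the 27.5% and 22.6% in DKK1 lesions. Of 27 regulators and partners, such as the plasminogen activators, their inhibitors and the Adamts-like proteins, 14 rose and 3 fell in wild-type lesions and 18 rose and 4 fell in DKK1 lesions, with medians of 0.48 and 0.92. A2m, a circulating protease trap, rose by 4.01 ± 0.38 and 3.77 ± 0.37, Lcn2, which binds Mmp9, by 3.56 ± 0.41 and 4.61 ± 0.44, and Thbs1, a matrix protein that curbs Mmp activation, by 2.04 ± 0.28 and 3.90 ± 0.30. Thbs1 and Thbs2 were the 2 of this list higher in DKK1 than wild-type lesions, by 1.25 ± 0.26 (adjusted p = 0.0345) and 1.24 ± 0.26 (adjusted p = 0.0366). Of 10 Adam genes, membrane proteases and relatives, 5 rose and 2 fell in wild-type and 7 rose and 2 fell in DKK1 lesions, with medians of 0.16 and 0.33. Adam8 rose by 2.28 ± 0.26 and 3.15 ± 0.26 and Adam17, the Tnf-releasing enzyme that Timp3 inhibits, by 0.999 ± 0.12 and 1.53 ± 0.12. Adam33 was the 1 Adam gene higher in DKK1 lesions, by 1.14 ± 0.18 (adjusted p = 0.00724).

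Among 20 matrix substrates, 13 rose and 1 fell in each genotype, with medians of 0.74 and 0.96. Lama1, a laminin chain of the outer vessel basement membrane, rose by 1.505 ± 0.15 and 2.27 ± 0.15, and Fn1 (fibronectin) by 0.98 ± 0.15 and 1.73 ± 0.16. Lama1 was also the 1 substrate higher in DKK1 than wild-type lesions, by 0.62 ± 0.14 (adjusted p = 0.0452). Of 14 tested inducers and transcription factors, 7 rose and 1 fell in wild-type lesions and 8 rose and 2 fell in DKK1 lesions, with medians of 0.48 and 0.60, and 0 passed between the genotypes by edgeR, with 2 at an unadjusted p under 0.05. Spi1, the myeloid transcription factor, rose by 2.76 ± 0.25 and 3.40 ± 0.25, and Tgfb1 by 2.45 ± 0.26 and 2.97 ± 0.27.

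Some of these genes overlap another gene on the opposite strand. Whether the counting used strand is not stated in the sources used here, which give only the unexplained word flip in column names. The reads of such genes therefore cannot be told apart with certainty. Timp1 lies within Syn1, Timp4 within Syn2 and Timp3 within Syn3, genes of synaptic vesicle proteins. In the lesions Syn1 fell by 0.33 ± 0.07 and 0.39 ± 0.07 on the log2 scale in wild-type and DKK1 mice, where Timp1 rose. Syn2 fell by 0.26 ± 0.08 and 0.37 ± 0.08, the direction of the DKK1 change of Timp4 under the replicate block. Syn3 stood at -0.26 ± 0.17 (adjusted p = 0.252) and -0.58 ± 0.17 (adjusted p = 0.0144) with the lesion and at -0.42 ± 0.17 (adjusted p = 0.197) between the genotypes in lesions, where Timp3 stood at 0.38 ± 0.09. Mmp19 shares its place with Tmem198b, which rose with it by 0.77 ± 0.18 and 1.28 ± 0.18, and Adamts9 with 9530026P05Rik, which rose by 1.13 ± 0.34 and 1.29 ± 0.34. Mmp28 overlaps 1700020L24Rik, which stood at 0.27 ± 0.19 (adjusted p = 0.278) in wild-type and rose by 0.74 ± 0.19 (adjusted p = 0.00659) in DKK1 mice, beside 0.31 ± 0.19 and 0.83 ± 0.19 for Mmp28. The part of these genes in the Timp1, Timp3, Timp4, Mmp19, Adamts9 and Mmp28 values was not tested.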

How the data were processed

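RNA from the lesioned and intact hemispheres of wild-type and DKK1 mice was sequenced as 12 libraries from a directional mRNA kit, per the labels' protocols. The authors deposited whole-number read counts per gene and, in a separate table, TPM values. The submitters' processing notes name STAR 2.7.0f, HOMER 4.11, DESeq2 and mm10, without saying which step each served. The sources used here do not state whether counting used strand. The count columns carry the word flip in their names, except that of the wild-type ipsilateral library that stood apart from its group. Every TPM column carries the word, that library included. Its meaning is not stated, and whether that library was counted differently was not tested. The TPM columns as deposited sum to 464026 to 480699 per library.

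The counts were analysed with edgeR 4.0.16 (quasi-likelihood test, robust, TMM scaling, filterByExpr with a minimum count of 10) in R 4.3.3, in 1 model of the 4 groups, and p-values were adjusted by Benjamini and Hochberg over all 17612 genes tested, with a threshold of 0.05. Log2 changes carry their standard error, and group means carry the SD over 3 libraries. Intervals and floors (95%, exact; 3 counts over a group) cover counting error only. Totals of at least 21209920 counts limit the precision for the genes under 1 CPM. The test was also run on simulated counts in which far fewer genes changed than were called in these lesions. That run does not check the test for shifts of this extent.

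Per-library values were given for members past the threshold between the genotypes or in the interaction, for up to 6 of the most changed called members in each direction of each lesion comparison, and for Timp1 to Timp4, Mmp2, Mmp3, Mmp9, Mmp12, Mmp14, Adamts1, Adamts4 and Adamts5; other members named with values (such as Mmp19 and Adamts15) were chosen after their values were seen. Partner genes were named by smallest p, at most 4 a list. The members and lists were chosen with earlier results of these data known, and the groupings by role after the values had been seen.

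Same-numbered hemispheres of a genotype deviated together from their group means, with wild-type correlations of 0.487, 0.310 and 0.297 and DKK1 correlations of 0.276, 0.125 and 0.105, all above 0.1, so they were treated as pairs in the replicate block. Differently numbered hemispheres had correlations of -0.358 to 0.172, and those of wild-type and DKK1 intact 2 with lesion 3, at 0.153 and 0.172, were above the lowest same-numbered values of DKK1 mice. Alternatives were RLE and upper-quartile scaling, no filter, DESeq2 1.42.0, limma 3.58.1 with voom or on log2(TPM + 0.1), the blocks, and leaving out each library.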

Additional observations from a re-analysis of the deposited data

Results flagged for a closer look

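With same-numbered hemispheres of a genotype paired as a replicate block, a test of the difference in lesion response between the genotypes passed for Mmp12 and Mmp14. The labels do not give these pairs, which were inferred from correlations in these same data. For DKK1 pairs 2 and 3 the correlations, 0.1255 and 0.1047, were below the 0.1723 of DKK1 intact 2 with lesion 3. The Mmp14 response was larger in DKK1 mice by 0.63 (log2), and the Mmp12 response by 3.73, a fitted value that rests on 3 counts in the DKK1 intact group and on wild-type contralateral 1, which held 26 intact counts against 2 and 1 in the other wild-type libraries. In the unpaired fit neither passed (adjusted p = 0.697 for Mmp14 and 0.572 for Mmp12). Without wild-type contralateral 1 the unpaired Mmp12 difference fell from 3.86 to 1.34 (adjusted p = 0.918), and that of Mmp14 from 0.59 to 0.36 (adjusted p = 0.815).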

How the results depend on the processing

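The numbers of members called with the lesion stayed within 1.5 times of those reported under every alternative, in both genotypes and directions. The Timp to Mmp ratios were set only beside those from the deposited TPM. Library scaling cancels in such a ratio, so their near equality is no separate check. The number higher in DKK1 than wild-type lesions, 1 as reported, was 0 with RLE scaling, upper-quartile scaling, no filter, TPM or the replicate number as a block, 4 with DESeq2, 0 to 13 when 1 library was left out, and 16 without the wild-type libraries numbered 1 of both hemispheres (chosen after seeing the data). The number lower was 2 with the replicate number as a block (Adamts18 and Timp4), where 1.26% of all genes were called lower. In the intact hemisphere the number higher was 1 without both wild-type libraries numbered 1, and the number with a larger response in DKK1 mice was 2 with the replicate block within genotypes and 0 to 1 when 1 library was left out. The replicate number did not pair libraries across genotypes, where correlations ran from -0.06 to 0.26. This block also ended the DKK1 lesion calls of Mmp9 (adjusted p = 0.0538) and Mmp23 (0.0557). It added calls of a fall in DKK1 lesions for Adamts19 (-1.3, adjusted p = 0.0282) and Timp4 (-0.234, adjusted p = 0.0183). Beside the changes given with the results, the block within genotypes changed no other lesion call of a described gene.

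None of the values whose sign turned had passed the test with all libraries, and of them Timp1 passed without wild-type ipsilateral 1. Between the genotypes in lesions Mmp17, at 0.01, was -0.016 with upper-quartile scaling, -0.012 with no filter, -0.030 with TPM and -0.038 without both wild-type libraries numbered 1. When 1 library was left out it ran from -0.053 to 0.093, Adamts12 from -0.24 to 0.77, Timp1 from -0.010 to 1.04, Adamts3 from -0.19 to 0.13 and Mmp16 from -0.22 to 0.0090, and the wild-type lesion change of Timp4 ran from -0.037 to 0.29. Without wild-type ipsilateral 1 the difference between genotypes in lesions also turned for Adamts16 (-0.12 to 0.13), Adamts20 (-0.05 to 0.16), Mmp25 (-0.17 to 0.06) and Adamts8 (0.01 to -0.07). The cause of these shifts was not tested. Genes with few intact counts, above all Mmp3, Mmp8, Mmp12, Mmp13 and Mmp27, are limited by depth, so their fitted changes depend on the prior count.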
